A study of Mus musculus with 2 samples.

Results

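The leukocyte miRNAs examined here were 10 mature miRNAs of blood leukocytes and inflammation, taken by name from the 1900 mouse miRNAs of the array: mmu-miR-223-3p, mmu-miR-223-5p, mmu-miR-142a-3p, mmu-miR-142a-5p, mmu-miR-150-5p, mmu-miR-155-5p, mmu-miR-146a-5p, mmu-miR-146b-5p, mmu-miR-342-3p and mmu-miR-342-5p. Each of the 10 had a spot of its own on both arrays. The study set extracellular vesicles (EVs) of C57BL/6 mice, a strain chosen for its recovery of blood flow after hindlimb ischemia, against those of BALB/c mice, a strain chosen for lacking it. One array held RNA of plasma EVs pooled from 5 male C57BL/6 mice and the other that of 5 male BALB/c mice, all aged 8 weeks and bled 24 h after ligation and cutting of the left femoral vessels. No unoperated mice are among the arrays, so the values compare 2 operated strains. Each strain is thus represented by 1 array of 1 pool, which leaves neither a spread between mice nor a strain comparison with a p-value, and the precision of every value is limited by the number of arrays.

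Leukocytes, platelets and other blood cells release vesicles that carry miRNAs into the plasma, and some miRNAs are made almost exclusively in blood cells. A miRNA hairpin yields a 5p and a 3p arm, of which one is usually kept as the guide that pairs with target mRNAs through its seed, bases 2 to 8. miR-223 is a miRNA of granulocytes and monocytes that is also abundant in platelets, and miR-142 is made throughout the blood lineages. miR-150 is abundant in mature lymphocytes, where it targets Myb, and miR-342 lies in an intron of Evl and is expressed in blood cells. miR-155 is induced in activated macrophages and lymphocytes. miR-146a and miR-146b are induced by inflammatory signals. miR-146a is induced through NF-kB and dampens that signalling by targeting Traf6 and Irak1.

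Of the 10 miRNAs, 9 had a mature sequence in RefSeq (build GRCm38.p6), all but miR-150-5p, and all 4 other arms of the hairpins had one. Those on which the results turn are printed here in the 5′ to 3′ direction, with the seed in capitals, because the array reads each arm with a separate probe and no seed is shared except by miR-146a-5p and miR-146b-5p. The first 4 lines are miRNAs detected in at least 1 strain, followed by the miR-146 pair and the arms of miR-155. Of these last lines, miR-146a-5p and miR-155-3p were detected as well, in the C57BL/6 mouse EVs only.
miR-223-3p (chrX:96242884-96242905, plus strand): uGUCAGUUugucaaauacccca
miR-142a-5p (chr11:87756867-87756887, plus strand): cAUAAAGUagaaagcacuacu
miR-142a-3p (chr11:87756903-87756925, plus strand): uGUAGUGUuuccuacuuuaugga
miR-342-3p (chr12:108658680-108658702, plus strand, within Evl): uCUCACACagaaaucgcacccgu
miR-146a-5p (chr11:43374435-43374456, minus strand): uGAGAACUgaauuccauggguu
miR-146b-5p (chr19:46342790-46342811, plus strand): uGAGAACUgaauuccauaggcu
miR-155-5p (chr16:84714143-84714165, plus strand, within Mir155hg): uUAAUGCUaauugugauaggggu
miR-155-3p (chr16:84714182-84714202, plus strand, within Mir155hg): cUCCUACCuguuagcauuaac
miR-146a-5p and miR-146b-5p have the same seed and differ at 2 of their 22 positions, the first at position 18 from the 5′ end. No other miRNA of the array with a RefSeq sequence had the seed of any of the 9 members.

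Detection was the first measure compared. A miRNA was called detected where the Cy5 intensity of its spot, in arbitrary units, lay more than 2 SD above the mean of the empty BLANK spots of the same array, that is above 106 in the C57BL/6 mouse EVs and above 111 in the BALB/c mouse EVs. Of the 10 leukocyte miRNAs, 6 were detected in the C57BL/6 mouse EVs and 4 in the BALB/c mouse EVs. Over all 1900 miRNAs the share detected was 33.6% in the C57BL/6 mouse EVs and 9.84% in the BALB/c mouse EVs. Both strains shared 4 of the 10, against 9.37% of all miRNAs, and 2 of the 10 were detected only in the C57BL/6 mouse EVs, against 24.2% of all miRNAs. None of the 10 was detected only in the BALB/c mouse EVs, which was rare on the whole array. There 178 of the 187 miRNAs detected in the BALB/c mouse EVs were also detected in the C57BL/6 mouse EVs. In neither strain were 4 of the 10 detected, a smaller share than over all 1900 miRNAs, most of which were detected in neither. The spot was brighter on the C57BL/6 array for 8 of the 10 miRNAs and on the BALB/c array for 2, miR-146b-5p and, by less than the rounding, miR-155-5p, both of which were below the threshold on each array. The same count was not made over all 1900 miRNAs, so it is no result about the leukocyte miRNAs. The spike controls too were brighter on the C57BL/6 array, by factors of 1.71 and 1.91.

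**Figure D1:**
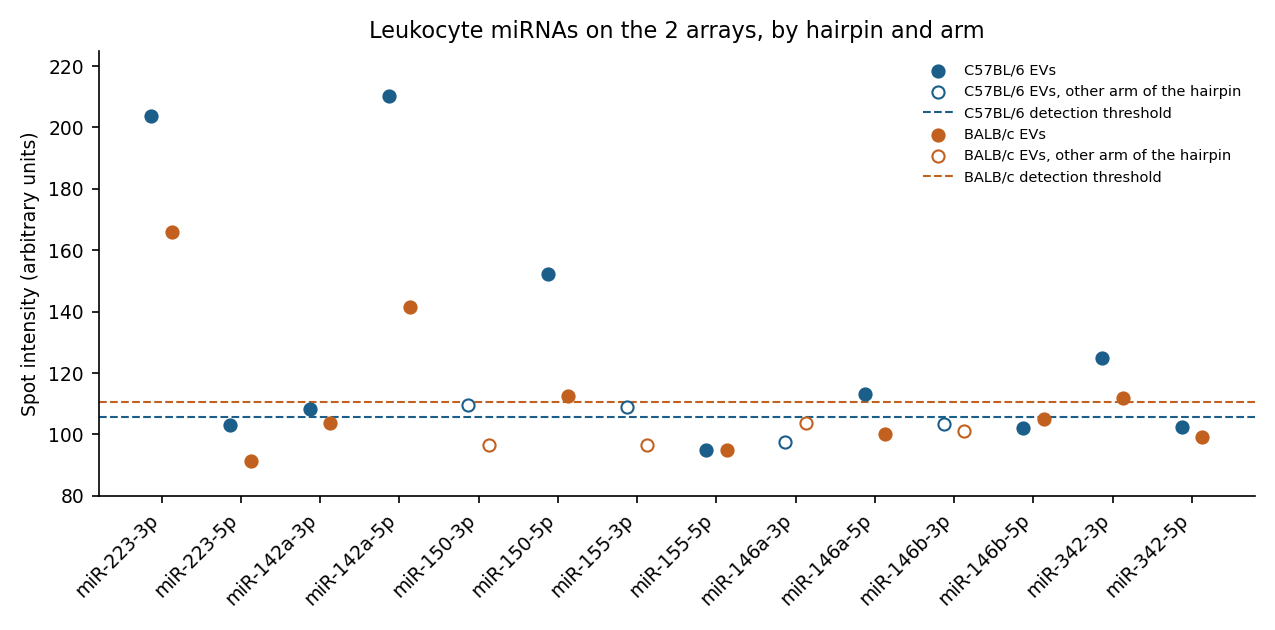
Spot intensity (arbitrary units) of the 10 leukocyte miRNAs (filled) and of the 4 other arms of their hairpins (open) on the C57BL/6 array (blue, left of each pair) and the BALB/c array (orange, right), with 1 array per strain. Dashed lines are the detection thresholds of 106 and 111, and miR-223-3p and miR-142a-5p stand well above them on both arrays. These thresholds take no account of the surroundings of a spot, which on the BALB/c array were at 140 for miR-142a-5p, with the spot at 142.

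miR-223-3p, the myeloid arm, was detected in both strains with a wide margin over the BLANK spots. Its spot intensity was 204 in the C57BL/6 mouse EVs and 166 in the BALB/c mouse EVs. These lie 29.10 SD above the BLANK spots on the C57BL/6 array and 15.80 SD above them on the BALB/c array, with signals above the BLANK mean of 105 in the C57BL/6 mouse EVs and 63.5 in the BALB/c mouse EVs. After scaling of both arrays to the same 75th percentile over the 178 miRNAs detected in both strains, the signals were 45.6 in the C57BL/6 mouse EVs and 146 in the BALB/c mouse EVs, a ratio of 0.312 (range 0.258 to 0.381). The range is what results when the 2 signals are shifted in opposite directions, each by 2 SD of its array's BLANK spots, and it covers spot noise only and not the spread between mice. The direction depends on the scaling: without scaling the C57BL/6 signal was 1.66-fold the BALB/c signal, and on the authors' scale, with values of 133 in the C57BL/6 mouse EVs and 67.0 in the BALB/c mouse EVs, it was 1.99-fold. The surroundings of the miR-223-3p spot were bright too, and it exceeded them by 42.6 in C57BL/6 and 41.0 in BALB/c. With surroundings subtracted, the detection threshold was 31.3 on the C57BL/6 array and 28.5 on the BALB/c array, so the margin was then narrower.

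Since the scaling factor is not known, each ratio is also given relative to the median ratio of the 178 shared miRNAs, a quantity that no single factor between the arrays can move. On this measure miR-223-3p lay 2.37-fold below the shared median (log2 -1.24, range -1.52 to -0.95). It was the only 1 of the 4 measured leukocyte miRNAs that lay 2-fold or more below it, as did 21.3% of all shared miRNAs, and none lay 2-fold or more above it, as did 32.6%. Against shared miRNAs of low accession number or low G content, it was at -0.53 and no longer 2-fold below. Its rank by intensity among the shared miRNAs was 94 in the C57BL/6 mouse EVs and 44 in the BALB/c mouse EVs. It ranked 148 of 178 by its ratio, between miR-140-3p at -1.22 and miR-126a-5p at -1.24.

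miR-142a-5p, an arm made across the blood lineages, had a spot intensity of 210 in the C57BL/6 mouse EVs and 142 in the BALB/c mouse EVs. Its signals lay 30.96 SD above the BLANK spots in the C57BL/6 mouse EVs and 9.73 SD above them in the BALB/c mouse EVs, where its surroundings were nearly as bright and the detection was lost once they were subtracted. The scaled signals were 48.6 in the C57BL/6 mouse EVs and 90.2 in the BALB/c mouse EVs, a ratio of 0.539 (0.418 to 0.722), while the unscaled ratio was 2.87-fold. The authors' values were 142 in the C57BL/6 mouse EVs and 41.3 in the BALB/c mouse EVs, a ratio of 3.44-fold. Relative to the median of all shared miRNAs it was 1.37-fold lower (log2 -0.45, range -0.82 to -0.03), but it lay 0.26 above the median of the 62 shared miRNAs with a miRBase accession number up to that of miR-223-3p, called the early miRNAs here. This range and that of miR-223-3p did not overlap, and the relative ratio of miR-223-3p was 1.73-fold below that of miR-142a-5p.

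miR-150-5p, the lymphocyte miRNA, stood well above the BLANK spots in 1 strain only, where its surroundings at 140 were nearly as bright. Detection of miR-150-5p was lost in both strains once the surroundings were subtracted. Its spot intensity was 152 in the C57BL/6 mouse EVs, 14.89 SD above the BLANK spots, and 113 in the BALB/c mouse EVs, where it lay 2.49 SD above them and was no longer detected at 3 SD or with untrimmed BLANK spots. The scaled signals were 23.4 in the C57BL/6 mouse EVs and 23.1 in the BALB/c mouse EVs, a ratio of 1.01 with a range of 0.485 to 5.78. The unscaled ratio was 5.38-fold and that of the authors' values, 68.2 in C57BL/6 and 10.6 in BALB/c, was 6.45-fold. It was the only leukocyte miRNA above the shared median, by 1.37-fold (log2 0.45, range -0.60 to 2.97), and its rank by intensity was 122 in the C57BL/6 mouse EVs and 159 in the BALB/c mouse EVs. Its relative ratio was 3.24-fold above that of miR-223-3p, and these 2 ranges did not overlap either.

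miR-342-3p had a spot intensity of 125 in the C57BL/6 mouse EVs and 112 in the BALB/c mouse EVs, that is 7.31 SD above the BLANK spots of the C57BL/6 array and 2.32 SD above those of the BALB/c array, where it too was lost at 3 SD and with untrimmed BLANK spots. The scaled signals were 11.5 in the C57BL/6 mouse EVs and 21.5 in the BALB/c mouse EVs, a ratio of 0.534 with a range of 0.208 to 4.95, so that the direction was not fixed even on this scale. The unscaled ratio was 2.84-fold, and the authors' values were 33.5 in the C57BL/6 mouse EVs and 9.83 in the BALB/c mouse EVs. Relative to the median of all shared miRNAs it was 1.38-fold lower (log2 -0.47, range -1.83 to 2.75), though at 0.02 after normexp and quantile normalization and above the early miRNAs. Its range overlapped those of the 3 others. By ratio miR-342-3p ranked 108 of 178, next to miR-27a-3p at 107, and miR-142a-5p ranked 106. miR-150-5p ranked 73.

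**Figure D2:**
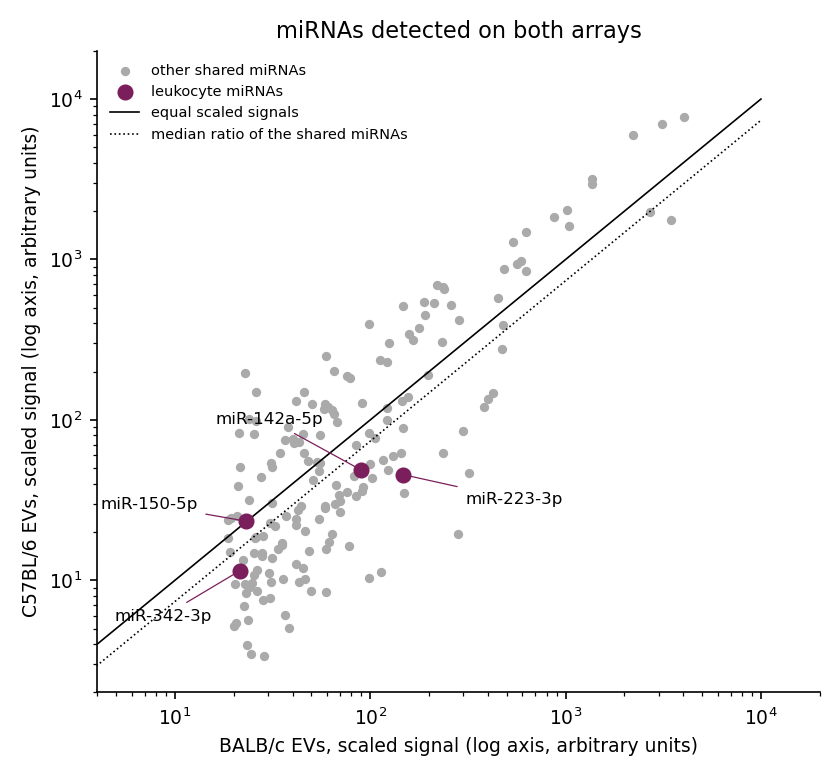
Scaled signals (log axes, arbitrary units) of the 178 miRNAs detected on both arrays, BALB/c mouse EVs on the x axis and C57BL/6 mouse EVs on the y axis. Of the 4 leukocyte miRNAs (purple), miR-223-3p, at 45.6 for C57BL/6 and 146 for BALB/c, lies farthest below the dotted line, which marks the median ratio of the shared miRNAs (log2 -0.44), and miR-150-5p lies above it.

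Over the 4 miRNAs measured in both strains, the median log2 ratio was -0.90 after scaling and -0.46 relative to the shared miRNAs, with 3 below and 1 above their median; against the early miRNAs the relative median was 0.26. The sign of the scaled value turned with the scaling, to 1.51 without any, 0.66 on the spike controls and 1.77 in the authors' table. The summed signal of these 4 above the BLANK mean was 298 in the C57BL/6 mouse EVs and 122 in the BALB/c mouse EVs. These values leave out the 2 miRNAs detected in 1 strain only and the 4 in neither.

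The 2 miRNAs detected only in the C57BL/6 mouse EVs were dim. miR-146a-5p, the feedback inhibitor of inflammatory signalling, had an intensity of 113 in the C57BL/6 mouse EVs, 4.13 SD above the BLANK spots, and 100 in the BALB/c mouse EVs, at -0.61 SD from their mean, where it was not above background. miR-142a-3p had 108 in the C57BL/6 mouse EVs, 2.74 SD above and thus below a threshold of 3 SD, and 104 in the BALB/c mouse EVs, 0.33 SD above. Set against 8.08, which was the dimmest detected signal in the BALB/c mouse EVs, the unscaled signals were at least 1.85-fold higher for miR-146a-5p and at least 1.23-fold higher for miR-142a-3p in the C57BL/6 mouse EVs, without allowance for spot noise. On the authors' scale the bounds were 2.22-fold and 1.47-fold, and after scaling on the shared miRNAs neither signal exceeded that floor, so that no fold is given there. Spots with no probe passed the threshold in 5.17% of 174 cases on the C57BL/6 array and in 4.60% on the BALB/c array.

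The remaining 4 miRNAs were below the threshold on both arrays, with intensities from 95.0 to 103 in the C57BL/6 mouse EVs and from 91.4 to 105 in the BALB/c mouse EVs. miR-155-5p, the arm induced in activated leukocytes, had 95.0 in both, at -0.93 SD from the BLANK mean in the C57BL/6 mouse EVs and -1.86 SD in the BALB/c mouse EVs. miR-146b-5p had 102 in the C57BL/6 mouse EVs and 105 in the BALB/c mouse EVs, and miR-342-5p had 103 in the C57BL/6 mouse EVs and 99.1 in the BALB/c mouse EVs. miR-223-5p had 103 in the C57BL/6 mouse EVs and 91.4 in the BALB/c mouse EVs. A spot below the threshold does not show that the miRNA was absent.

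The use of the 2 arms was compared only by detection, since 2 probes can differ in how well they bind and their intensities do not rank the arms. No hairpin had both arms detected in both strains, so the change of one arm could not be set against that of the other. For miR-223 and miR-342 the 3p arm was detected in both strains and the 5p arm in neither. For miR-142a both arms were detected in the C57BL/6 mouse EVs, and of the 2 only the 5p arm in the BALB/c mouse EVs. For miR-150 both arms were detected in the C57BL/6 mouse EVs as well, with an intensity of 110 for miR-150-3p against 96.7 in the BALB/c mouse EVs, while miR-150-5p was detected in both strains. For miR-155 the 3p arm was the only one detected, with 109 in the C57BL/6 mouse EVs (2.93 SD above the BLANK spots) and 96.6 in the BALB/c mouse EVs (at -1.46 SD). At 3 SD neither arm of miR-155 was detected, miR-142a-3p was lost, and of miR-342 the 3p arm remained in the C57BL/6 mouse EVs only. Both arms of miR-150 were then detected in the C57BL/6 mouse EVs and neither in the BALB/c mouse EVs. For the 2 miR-146 hairpins, miR-146a-5p in the C57BL/6 mouse EVs was the only arm detected. miR-146a-3p had 97.7 in the C57BL/6 mouse EVs and 104 in the BALB/c mouse EVs, and miR-146b-3p had 104 in the C57BL/6 mouse EVs and 101 in the BALB/c mouse EVs. Once the surroundings of each spot were subtracted, only miR-223-3p in both strains and miR-142a-5p in the C57BL/6 mouse EVs were still detected. The undetected miR-342-5p exceeded its surroundings by 27.5 in C57BL/6 and 19.2 in BALB/c, and miR-342-3p by 25.1 in C57BL/6 and 6.97 in BALB/c. In C57BL/6 the excess was 24.0 for miR-150-3p and 11.9 for miR-150-5p, but 25.7 for miR-223-5p and 42.6 for miR-223-3p.

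The surroundings of the brighter spots were bright as well. For miR-223-3p the local background was 161 on the C57BL/6 array and 125 on the BALB/c array, against a median around the BLANK spots of 77.8 on the C57BL/6 array and 85.7 on the BALB/c array. The spot of miR-223-3p exceeded its surroundings by 42.6 in the C57BL/6 mouse EVs and by 41.0 in the BALB/c mouse EVs. For miR-142a-5p the excess was 36.6 in the C57BL/6 mouse EVs and 1.66 in the BALB/c mouse EVs, so that on the BALB/c array its spot hardly stood out from its surroundings at 140. For miR-150-5p the excess was 11.9 in the C57BL/6 mouse EVs and 14.8 in the BALB/c mouse EVs, and for miR-342-3p it was 25.1 in the C57BL/6 mouse EVs and 6.97 in the BALB/c mouse EVs. The empty BLANK spots themselves exceeded their surroundings by a mean of 20.0 on the C57BL/6 array and 16.1 on the BALB/c array. Both excesses of miR-150-5p, and those of miR-142a-5p and miR-342-3p on the BALB/c array, were below these means. The part of the surroundings in the ratios was not tested beyond their subtraction. With the local background subtracted, the threshold was set anew at 31.3 on the C57BL/6 array and 28.5 on the BALB/c array. By this threshold 13.4% of all miRNAs were detected in the C57BL/6 mouse EVs and 4.11% in the BALB/c mouse EVs. Of the 10, miR-223-3p was the only one detected in both strains, at a log2 ratio of -2.37 relative to the 74 miRNAs then shared. miR-142a-5p stayed detected in the C57BL/6 mouse EVs only, and the other 8 in neither strain.

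**Figure D3:**
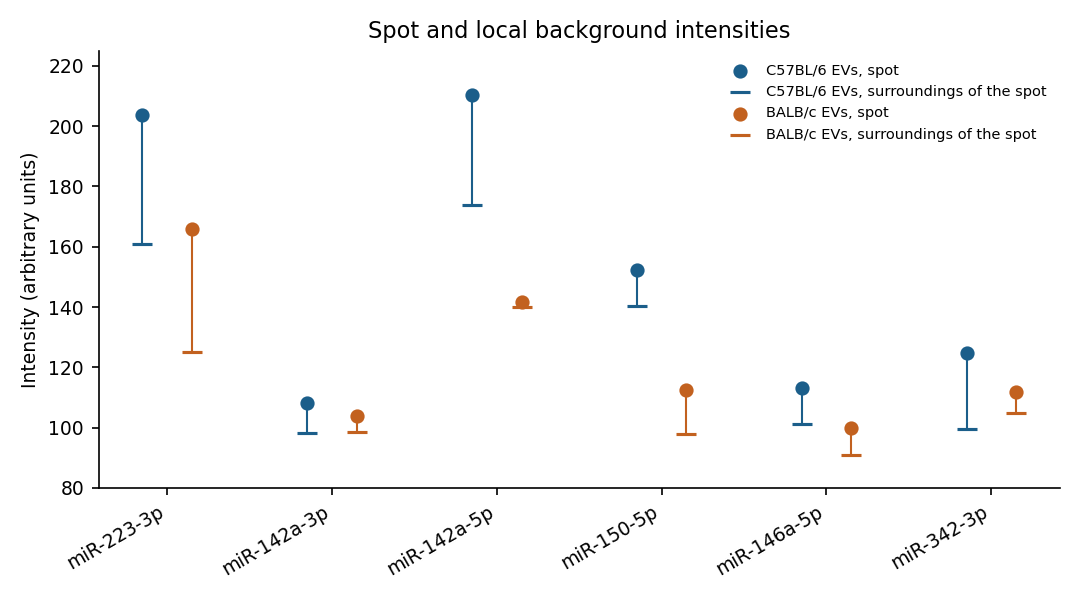
Intensity (arbitrary units) of the spot (points) and of its surroundings (dashes) for the 6 leukocyte miRNAs detected in the C57BL/6 mouse EVs, with the C57BL/6 array in blue at the left of each pair and the BALB/c array in orange. The line length is the excess of the spot over its surroundings, 42.6 for C57BL/6 and 41.0 for BALB/c at miR-223-3p but 36.6 for C57BL/6 and 1.66 for BALB/c at miR-142a-5p.

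miRNAs of other blood cells mostly lay below the shared median as well, and their part in the ratios of the leukocyte miRNAs was not tested. Of 17 further miRNAs linked to leukocytes and inflammation, 8 were detected in the C57BL/6 mouse EVs and 5 in the BALB/c mouse EVs, all 5 of them in both. These 5 had a median of -0.60 relative to the shared miRNAs, running from miR-181a-5p at -1.74, a miRNA of developing lymphocytes, to miR-21a-5p at -0.01, a miRNA of many cell types that is raised in inflammation. miR-29c-3p was at -1.29, miR-29a-3p at -0.60 and miR-29b-3p at -0.12. The 3 detected only in the C57BL/6 mouse EVs were miR-125a-5p, miR-132-3p and miR-326-3p. miR-147-3p, induced in activated macrophages, and both arms of miR-511, from an intron of the macrophage gene Mrc1, were detected in neither strain.

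Red cell and platelet miRNAs were detected on both arrays. Of 6 listed erythrocyte miRNAs, which 5 spots measured, 4 spots were detected in each strain. Their median was -0.49 and their lowest value -0.71, with a summed signal of 4962 in the C57BL/6 mouse EVs and 1798 in the BALB/c mouse EVs. The red cell miRNA miR-451a alone had an intensity of 4180 in the C57BL/6 mouse EVs and 1603 in the BALB/c mouse EVs, at a relative log2 ratio of -0.53, and miR-144-5p was below the threshold in both strains. Of 7 listed platelet miRNAs, 6 were on the array and 5 were shared by both strains, at a median of -0.59 and with a summed signal of 783 in the C57BL/6 mouse EVs and 252 in the BALB/c mouse EVs. miR-223-3p is itself in this list and was its lowest member, while the others ran from miR-191-5p at -0.80 to miR-24-3p at 0.27. Platelet and leukocyte origin of miR-223-3p cannot be told apart in these arrays, nor can fewer vesicles of a cell type and less RNA per vesicle. The 3 muscle miRNAs detected in both strains were lower still, at -1.38 to -2.88, and of 3 liver miRNAs the 1 detected in both strains was at -1.48.

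**Figure D4:**
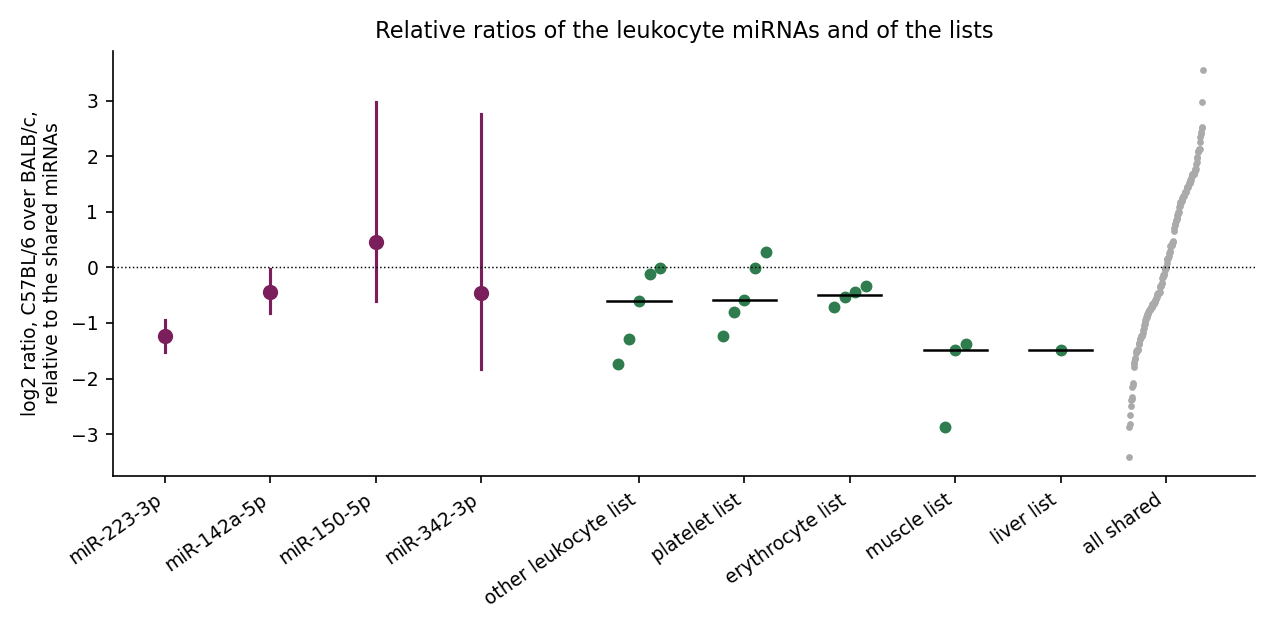
log2 ratio of C57BL/6 to BALB/c after subtraction of the shared median (dotted line), for the 4 leukocyte miRNAs (purple, bars for 2 SD of the BLANK spots), the members of the other lists (green, black line for the median) and all 178 shared miRNAs (grey). miR-223-3p at -1.24 and miR-142a-5p at -0.45 have bars that do not cross 0, and those of miR-150-5p and miR-342-3p do, while against the early miRNAs alone miR-142a-5p and miR-342-3p lie above 0.

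The 4 leukocyte miRNAs measured in both strains have low miRBase accession numbers, none above that of miR-223-3p, and both the accession number and the share of G went with the ratio across the shared miRNAs. The median of the 62 shared miRNAs up to that number, a group chosen after the values were seen, was -0.72 relative to all shared miRNAs, and 57 lay below 0. A wider group of 102, up to the far higher number of the undetected miR-223-5p, had a median of -0.51 with 70 below 0, and against it miR-223-3p was at -0.73, miR-142a-5p at 0.05, miR-342-3p at 0.04 and miR-150-5p at 0.96. Within the 62, miR-150-5p ranked 3 from the top by its ratio, miR-142a-5p 17, miR-342-3p 19 and miR-223-3p 49. Against their median, miR-223-3p was at -0.53, and miR-142a-5p, miR-342-3p and miR-150-5p were at 0.26, 0.25 and 1.17.

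The share of G in the mature sequence was 13.6% for miR-223-3p, 14.3% for miR-142a-5p and 13.0% for miR-342-3p. Over the 9 members with a sequence the median was 22.7%, against 26.3% over all array miRNAs with one and 38.1% over the 151 shared ones. The undetected miR-342-5p had 40.9%, and miR-223-5p and miR-155-5p had 30.4% each. Across these 151, Spearman's rho between the share of G and the relative log2 ratio was 0.73, as a description over miRNAs of the same 2 arrays that are not independent. In the third with the least G, 4.55% to 27.3%, the median was -0.71 and 47 of 52 lay below 0, whereas in the third with the most G it was 1.49 and none of 50 did. The 3 measured members with a sequence lay in the group with the least G. Against the median of that group miR-223-3p was at -0.53, miR-142a-5p at 0.26 and miR-342-3p at 0.25.

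**Figure D5:**
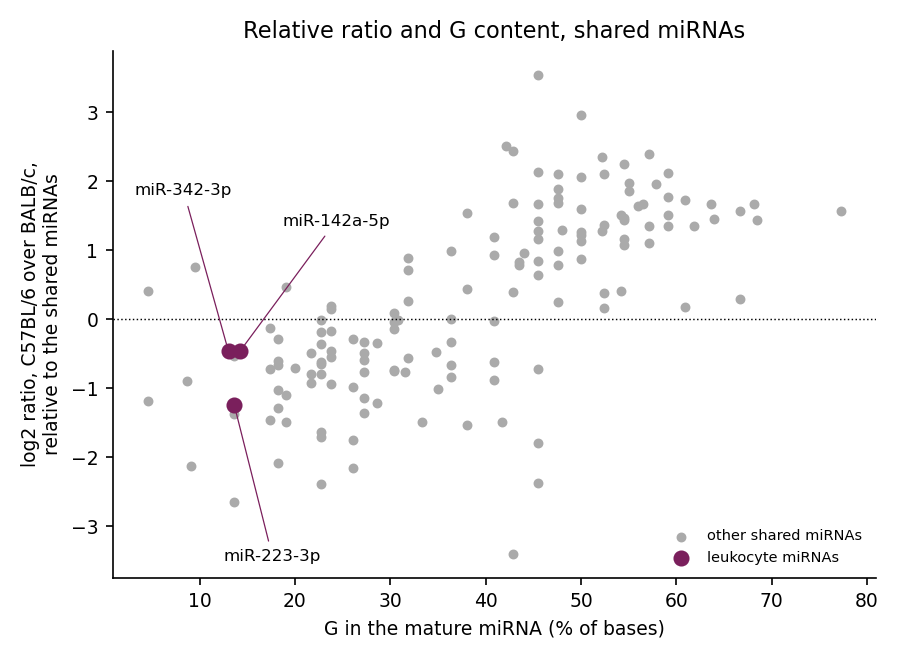
Share of G in the mature miRNA (% of bases, x axis) and log2 ratio of C57BL/6 to BALB/c relative to the shared miRNAs (y axis), for the 151 shared miRNAs with a RefSeq sequence, 1 point each. The 3 leukocyte miRNAs shown (purple) lie between 13.0% and 14.3% G, where most of the points are below 0.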

How the data were processed

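The authors labelled the RNA with Cy5 and hybridised it to 3D-Gene miRNA oligo chips. They deposited the median scanner intensity of each spot and of its surroundings at 635 nm, without subtraction, and a table of processed intensity values in which an undetected miRNA is blank. The steps behind that table are not given in the sources used here, but it was recomputed from the spots to within 7.66e-05, with 0 detection calls differing, as the signal above the BLANK mean times a single factor, 1.26 on the C57BL/6 array and 1.06 on the BALB/c array, that brings the median of the detected miRNAs to 25. The sample labels name cells and another RNA kit than the paper's methods, which were followed for the description of the samples.

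For C57BL/6 the BLANK spots averaged 98.3 with an SD of 3.62, and for BALB/c they averaged 102 with an SD of 4.02, over 806 of 896 spots after leaving out 45 at each end (5%), a number that gives the authors' detection calls. This mean was subtracted, and the C57BL/6 to BALB/c ratio was divided by 5.32, the ratio of the 75th percentiles (333 and 62.6) over the shared miRNAs. A fold is given only for miRNAs detected on both arrays. As both arrays hold intensities and not counts, their depth is unknown. The alternatives were detection at 3 SD, untrimmed BLANK spots, the authors' table, no scaling, and scaling by the median of the shared miRNAs. Another was scaling by the spike controls, which were 1.71 and 1.91 times as bright on the C57BL/6 array. Local background subtraction and normexp (offset 50) with quantile normalization were also run. Normexp used all spots, and the quantile normalization used the miRNA spots only. The miRNAs named are the 10 members, the other arms of their hairpins, miRNAs of the other lists, and neighbours in the order of ratios. The members and lists were chosen with earlier results of these data known. The computation was tested on simulated data without local background. The ratio check there covered only miRNAs more than 10 SD above the BLANK spots on the BALB/c array. Of the leukocyte miRNAs measured in both strains, only miR-223-3p was that bright. The tools were numpy 2.4.6, scipy 1.17.1 and pandas 2.3.3 under Python 3.11.15, and limma 3.58.1 under R 4.3.3. Sequences and positions are from RefSeq, build GRCm38.p6.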

Additional observations from a re-analysis of the deposited data

How the results depend on the processing

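Detection near the threshold and the direction of the ratios depended on the processing. At 3 SD the leukocyte miRNAs detected in the BALB/c mouse EVs and in both strains numbered 2 each, since miR-150-5p and miR-342-3p were lost from BALB/c, and the median log2 ratio of the 2 left was -1.63. In the C57BL/6 mouse EVs 5 remained, without miR-142a-3p. Over the whole array the miRNAs detected in both strains fell from 178 to 140 at 3 SD. With no BLANK spots left out the same 2 were lost from BALB/c, which left 2 each, and 155 miRNAs of the whole array were shared. The share of all miRNAs detected in each strain is not given for either setting. The counts per strain at these settings are therefore no result about the leukocyte miRNAs. With local background subtraction 2 were detected in the C57BL/6 mouse EVs, 1 in the BALB/c mouse EVs and 1 in both, with a log2 ratio of -2.71, or -2.37 relative to the shared miRNAs. Without scaling, the median log2 ratio was 1.51, with miR-223-3p at 0.73, miR-142a-5p at 1.52 and miR-342-3p at 1.51. On the spike controls it was 0.66, with miR-142a-5p at 0.67, miR-342-3p at 0.65 and miR-223-3p at -0.12. In the authors' table it was 1.77, with miR-223-3p at 0.99, miR-142a-5p at 1.78 and miR-342-3p at 1.77. With normexp and quantile normalization, the log2 ratio of miR-150-5p was -0.03, or 0.25 relative to the shared miRNAs. The log2 ratio of miR-342-3p was then -0.26, or 0.02 relative to the shared miRNAs. Every other reference below was chosen after seeing the data. Against the 102 miRNAs with accession numbers up to that of miR-223-5p, the relative median was 0.05, miR-142a-5p was at 0.05 and miR-342-3p at 0.04. Against the 62 up to that of miR-223-3p these were 0.26, 0.26 and 0.25, and against the third of the shared miRNAs with the least G they were 0.25, 0.26 and 0.25. The scalings by 1 factor shift all ratios alike by construction. For the other changes the cause was not tested. Relative to its reference miR-223-3p stayed below 0 in all settings run, at -0.53 to -2.37. The ratio of one arm against the other could not be formed in any setting. Detection of arms changed at 3 SD, which removed miR-142a-3p and miR-155-3p from the C57BL/6 mouse EVs and miR-150-5p and miR-342-3p from the BALB/c mouse EVs. Untrimmed BLANK spots also removed miR-150-5p and miR-342-3p from the BALB/c mouse EVs. Local background subtraction left miR-223-3p and miR-142a-5p in the C57BL/6 mouse EVs and miR-223-3p alone in the BALB/c mouse EVs.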
